A study of Homo sapiens with 6 samples.

Results

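The genes described are the keratin genes of PC9OR cells, labelled as lung cancer cells, after knockdown of GLMP. The parental name, PC9, is that of a human lung adenocarcinoma line driven by an activating EGFR mutation. All genes of the deposited table whose symbol was KRT followed by a number and at most 1 letter were taken, which gave 67 of 60664 genes. Of these, 12 ended in P, the letter that marks a pseudogene symbol, and are kept apart from the other 55. RNA sequencing was done on 3 libraries labelled si-GLMP, in which GLMP was knocked down, and 3 libraries labelled NC, the control. Both groups were the same line. No source used here gives the dose or duration of the knockdown, or says whether the 3 libraries of a group came from separate cultures. The tests therefore rest on the spread among the libraries of a group, and part or all of that spread may be technical. The series title places GLMP in resistance to EGFR tyrosine kinase inhibitors, autophagy and RhoA signalling, and says nothing about keratins.

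Keratins are the intermediate filament proteins of epithelial cells. Each filament is built from pairs of 1 type I and 1 type II keratin, so the types are needed together, and an epithelium is recognised by the pairs it makes. KRT8 and KRT18, with KRT7 and KRT19, belong to simple epithelia such as the glandular lining of the lung, and KRT7 is a routine stain for lung adenocarcinoma. KRT5 and KRT14 belong to the basal layer of stratified epithelia, KRT6, KRT16 and KRT17 to wounded or hyperproliferative epidermis, and the hair keratins to the hair shaft.

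Library totals ran from 19896875 to 22372878 counts, and the keratins took 0.825 to 0.948% of the counts in si-GLMP and 0.920 to 0.973% in NC. GLMP itself, a lysosomal membrane protein, had 82, 61 and 65 counts in si-GLMP and 309, 344 and 347 counts in NC, a log2 fold change of -2.25 ± 0.14 with edgeR (adjusted p = 1.16e-18). Levels are given in CPM, counts scaled to a common library total with TMM factors, a scaling that corrects for a few genes that take a large share of a library. A log2 fold change is that of si-GLMP over NC with its standard error (SE), and a gene is called higher or lower where the edgeR quasi-likelihood test gave a Benjamini-Hochberg adjusted p under 0.05 over all 15900 tested genes. A group mean is given ± SD over its 3 libraries. The lung lineage markers NKX2-1, NAPSA, the surfactant genes and the secretoglobins were nearly undetected, with a summed level of 1.04 to 1.45 CPM in si-GLMP and 0.636 to 1.11 CPM in NC over 9 genes. Epithelial markers were present and 6 of 8 rose, beside 12.0% of all tested genes, with a summed level of 2343 to 2361 CPM in si-GLMP and 1897 to 1949 CPM in NC. Among fibroblast markers COL1A1 rose by 0.91 ± 0.14 on the log2 scale with edgeR (adjusted p = 1.59e-06), with a summed level of the 10 markers of 10.99 to 13.0 CPM in si-GLMP and 6.61 to 8.39 CPM in NC, while COL3A1 and POSTN had 0 counts in all 6 libraries. The 10 leukocyte markers summed to 1.74 to 2.49 CPM in si-GLMP and 1.71 to 1.997 CPM in NC, and LYZ, MS4A1 and TYROBP had 0 counts. The part of the markers that moved in the keratin results was not tested.

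Of the 55 keratins, 22 were expressed, that is, had 10 or more counts in at least 3 libraries, and these same 22 were tested. In si-GLMP, 5 were called higher (KRT6B, KRT16, KRT9, KRT78 and KRT23) and 5 fell (KRT7, KRT6A, KRT5, KRT13 and KRT81), while 12 were not called. The 10 called genes were 45.5% of the 22; over all tested genes 23.3% were called, 12.0% higher and 11.3% lower. With 1 library left out, 1 to 4 keratins were higher and 4 to 8 lower: 1 was higher without si-GLMP replicate 1 or 3, 2 without NC replicate 1 and 3 without NC replicate 3, and 8 were lower without si-GLMP replicate 1. DESeq2 called 2 higher and 5 lower. The median log2 fold change of the tested keratins was 0.05, beside 0.00 over all tested genes. In 10 of the 22 the CPM of the groups did not overlap, as it did not in 36.5% of all tested genes. Among simple keratins 0 rose and 1 fell of 4 expressed, among stratified keratins 4 rose and 3 fell of 12, among other epithelial keratins KRT23 was called higher and 0 fell of 2, and among hair keratins 0 rose and 1 fell of 4. The median log2 fold change was -0.11 for the simple, 0.12 for the stratified and -0.37 for the hair keratins expressed. By type, 3 were higher, KRT23 among them, and 1 fell of 12 type I keratins, and 2 rose and 4 fell of 10 type II keratins. KRT23 passed the filter on low counts only through the si-GLMP libraries, so it had to be higher there; without it 21 keratins were tested, 4 rose and 5 fell (42.9% called), the groups did not overlap in 9, and the median log2 fold change was 0.03. In bulk RNA, fewer cells that make a keratin and less of its RNA per cell cannot be told apart.

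**Figure D1:**
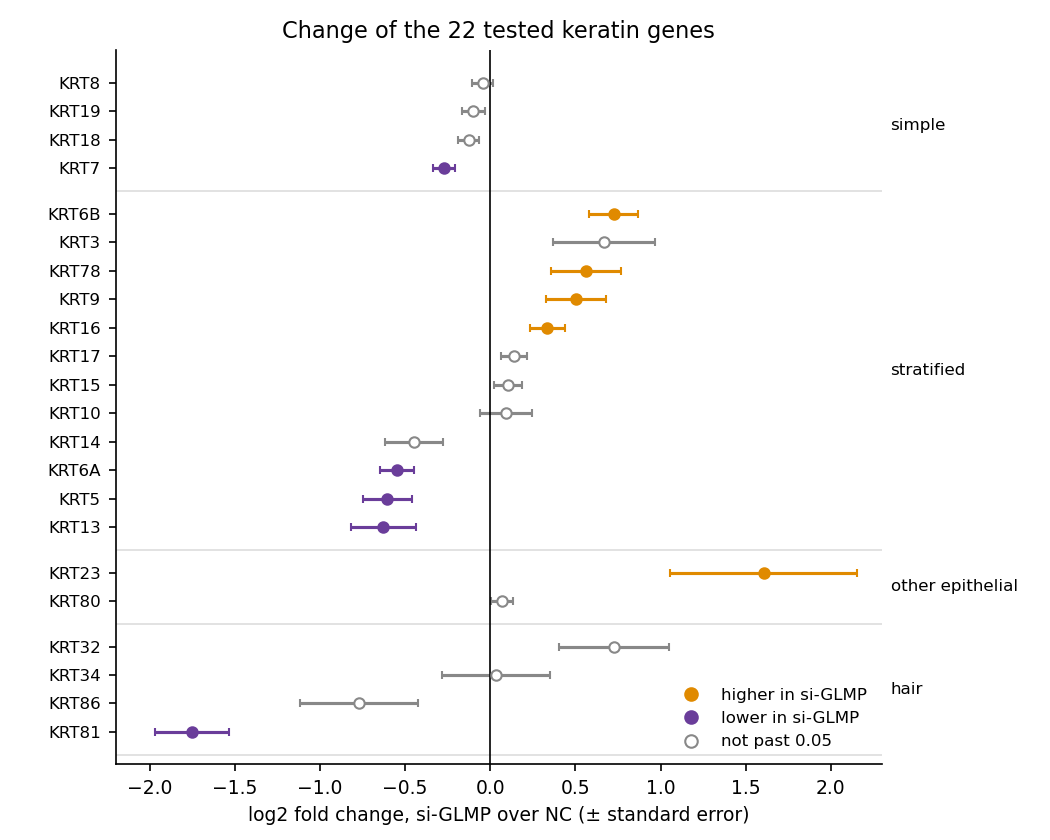
Log2 fold change of each expressed keratin in si-GLMP over NC (x axis), by keratin class down the page. Points are edgeR estimates and bars are 1 SE. Orange marks the 5 higher genes, purple the 5 lower genes and open grey the 12 not called. KRT23, among the 5 higher, passed the filter on low counts through si-GLMP only. KRT81 lies farthest to the left at -1.75.

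Stretches of coding sequence are shown first, because KRT6A, KRT6B and KRT81, which changed, have close copies on chromosome 12. Only reads that cover differing bases can tell the copies apart. For KRT6A, KRT6B and KRT6C the stretch lies in exon 2 of 9, coding bases 663 to 722, on the minus strand of GRCh38 at chr12:52491555-52491614, chr12:52450439-52450498 and chr12:52472099-52472158. Capitals mark the 9 positions at which the 3 copies are not all the same.
KRT6A: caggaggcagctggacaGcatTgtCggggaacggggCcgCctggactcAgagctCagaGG
KRT6B: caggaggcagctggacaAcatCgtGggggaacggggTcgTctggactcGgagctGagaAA
KRT6C: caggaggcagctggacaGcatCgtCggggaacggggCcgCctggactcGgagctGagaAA

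For the hair keratins KRT81, KRT83 and KRT86 the stretch lies in exon 9, at chr12:52286428-52286487 and chr12:52314753-52314812 on the minus strand and chr12:52308410-52308469 on the plus strand. Capitals mark 22 positions at which the 3 copies are not all the same.
KRT81: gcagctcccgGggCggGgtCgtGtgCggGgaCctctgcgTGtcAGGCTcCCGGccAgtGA
KRT83: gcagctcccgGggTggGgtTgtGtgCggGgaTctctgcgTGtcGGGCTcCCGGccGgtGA
KRT86: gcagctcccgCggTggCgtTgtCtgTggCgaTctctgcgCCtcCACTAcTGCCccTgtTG

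Each stretch is the 60 bases within 1 exon at which the copies differ most. Over the whole coding sequence of 1692 bases KRT6A and KRT6B were 97.52% identical, with 42 differing bases, and 38.16% of the 50-base windows of KRT6A occurred unchanged in KRT6B. KRT81 and KRT86 were 92.91% identical, with 49.18% of the windows of KRT81 unchanged in KRT86, whereas KRT81 shared 7.98% of its windows with KRT83. No source used here says how reads that match several copies were counted, so the split between copies is uncertain.

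The simple keratins made most of the keratin RNA. Per kilobase of the main transcript (CPM per kb, which allows genes of different length to be compared), KRT8 led with 1852 ± 114 CPM per kb in si-GLMP and 1911 ± 86.0 CPM per kb in NC, followed by KRT7, KRT19 and KRT18. The simple keratins held 91.96 ± 0.466% of the keratin level per kb in si-GLMP and 91.3 ± 0.562% in NC. KRT8 and KRT7 differed beyond their SD in both groups, as did KRT7 and KRT19. KRT19 and KRT18 differed by more than the SD of either in NC and in si-GLMP too, with 913 ± 97.7 CPM per kb in si-GLMP and 977 ± 24.3 CPM per kb in NC for KRT19 and 784 ± 56.9 CPM per kb in si-GLMP and 856 ± 27.8 CPM per kb in NC for KRT18. KRT6A came next with 131 ± 20.5 CPM per kb in si-GLMP and 192 ± 16.9 CPM per kb in NC, then KRT17 with 88.0 ± 12.8 CPM per kb in si-GLMP and 79.9 ± 1.98 CPM per kb in NC and KRT80 with 75.6 ± 2.85 CPM per kb in si-GLMP and 72.2 ± 3.71 CPM per kb in NC. KRT17 and KRT80 lay within the larger SD of the pair in si-GLMP.

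**Figure D2:**
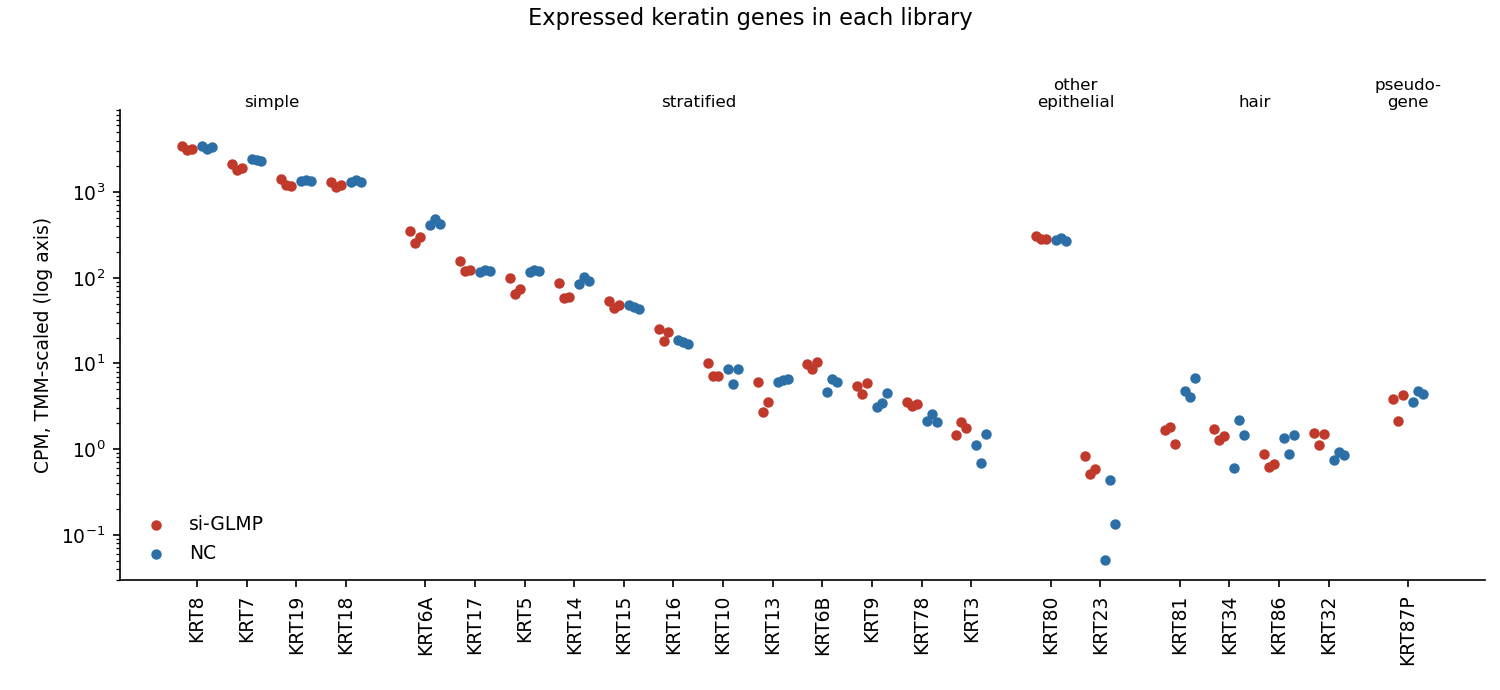
Level of the 22 expressed keratins and of the pseudogene KRT87P in each library, in TMM-scaled CPM on a log axis, with si-GLMP left of NC for each gene. Each point is a library; KRT8, KRT7, KRT19 and KRT18 stand above the other keratins in both groups, and KRT23 is the scarcest.

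KRT7, the type II keratin of simple and glandular epithelia, was the simple keratin that fell. Its level was 2159, 1836 and 1903 CPM in si-GLMP replicates 1 to 3, against 2459.9, 2353 and 2317 CPM in NC replicates 1 to 3. All 3 si-GLMP libraries lay under all 3 NC libraries. The means were 1966 ± 170.5 CPM in si-GLMP and 2376 ± 74.5 CPM in NC, a log2 fold change of -0.27 ± 0.06 with edgeR (adjusted p = 0.00105). The gene lies at chr12:52232520-52252186, and 6.9% of its exon bases overlap an antisense gene, KRT7-AS.

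KRT8, the type II partner of KRT18 and the most abundant keratin, had 3481, 3111 and 3161 CPM in si-GLMP replicates 1 to 3, against 3487, 3190.0 and 3387 CPM in NC replicates 1 to 3. The groups overlapped and gave a log2 fold change of -0.05 ± 0.06 with edgeR (adjusted p = 0.672). KRT18, its type I partner, had 1322, 1148 and 1203 CPM in si-GLMP replicates 1 to 3, against 1322, 1386 and 1304 CPM in NC replicates 1 to 3. It overlapped between groups too and gave a log2 fold change of -0.13 ± 0.06 with edgeR (adjusted p = 0.15). KRT19, a small type I keratin without the usual tail domain, had 1424, 1206 and 1175 CPM in si-GLMP replicates 1 to 3, against 1340.0, 1397 and 1338 CPM in NC replicates 1 to 3. Its log2 fold change was -0.10 ± 0.07 (edgeR adjusted p = 0.305). In these 3 genes si-GLMP replicate 1 was the highest si-GLMP library. Without that library KRT18 and KRT19 were called lower, with log2 fold changes of -0.19 (edgeR adjusted p = 0.0302) and -0.19 (edgeR adjusted p = 0.0249). This library also had the highest GLMP level of its group, 4.01 CPM, beside 2.88 and 3.15 CPM in replicates 2 and 3. It was also the highest si-GLMP library for KRT17, KRT16, KRT15, KRT80, KRT78, KRT32, KRT34, KRT10 and KRT23, which had positive log2 fold changes. For KRT6B, KRT9 and KRT3, also with positive values, another si-GLMP library was the highest. Whether the residual GLMP and the keratin level are linked was not tested.

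KRT7 was lower relative to KRT8, its fellow type II keratin, within each library. The ratio of KRT7 to KRT8 counts was 0.620, 0.590 and 0.602 in the si-GLMP libraries and 0.706, 0.738 and 0.684 in the NC libraries. The groups did not overlap, and the mean ratio was 0.604 ± 0.0151 in si-GLMP and 0.709 ± 0.0269 in NC. The ratio of KRT8 to its partner KRT18 was 2.66 ± 0.0464 in si-GLMP and 2.51 ± 0.184 in NC, and overlapped. KRT8 and KRT18 lie beside each other on opposite strands and overlap by 525 bases, 16.3% of the exon bases of KRT18 and 7.6% of those of KRT8. Reads of this overlap cannot be told apart without strand. Summed over the class, the simple keratins reached 8386, 7301 and 7442 CPM in si-GLMP, against 8608, 8326 and 8345 CPM in NC. The group means were 7709.7 ± 589.9 CPM in si-GLMP and 8427 ± 157 CPM in NC, a log2 ratio of -0.13, and si-GLMP replicate 1 lay inside the NC range.

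The stratified keratins changed in both directions, and the abundant ones that were called, KRT6A and KRT5, fell. KRT6A, the inducible type II keratin of wounded epidermis, had 351, 256 and 303 CPM in si-GLMP replicates 1 to 3, against 415, 488 and 427 CPM in NC replicates 1 to 3. The 3 si-GLMP libraries lay under every NC library. The means were 303 ± 47.4 CPM in si-GLMP and 444 ± 39.1 CPM in NC, a log2 fold change of -0.55 ± 0.10 with edgeR (adjusted p = 0.000978). It lies at chr12:52487174-52493257. With KRT6A, KRT6B and KRT6C summed, a choice made with these values known, the log2 fold change was -0.52 ± 0.10 (edgeR adjusted p = 0.000988).

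KRT5, the type II keratin of basal cells, had 98.2, 64.3 and 73.6 CPM in si-GLMP replicates 1 to 3, against 116, 123 and 119.9 CPM in NC replicates 1 to 3. Here too the groups did not overlap. The means were 78.7 ± 17.5 CPM in si-GLMP and 119.6 ± 3.73 CPM in NC, a log2 fold change of -0.60 ± 0.14 with edgeR (adjusted p = 0.0202). Without NC replicate 2 the value was -0.58 and the call was lost (edgeR adjusted p = 0.122). KRT14, the type I partner of KRT5, had 86.2, 58.8 and 60.2 CPM in si-GLMP replicates 1 to 3, against 84.4, 103 and 92.5 CPM in NC replicates 1 to 3. Replicate 1 of si-GLMP lay inside the NC range and the other 2 lay under it. Its log2 fold change of -0.45 ± 0.17 was not called (edgeR adjusted p = 0.134). Without si-GLMP replicate 1 it was -0.65 and called (edgeR adjusted p = 1.44e-07), and without NC replicate 1 it was -0.51 and also called (edgeR adjusted p = 0.00822). The ratio of KRT5 to KRT14 counts averaged 1.15 ± 0.0658 in si-GLMP and 1.29 ± 0.0884 in NC, and overlapped.

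KRT13, the type I keratin of mucosal, non-cornified epithelia, had 6.01, 2.73 and 3.58 CPM in si-GLMP replicates 1 to 3, against 6.08, 6.36 and 6.57 CPM in NC replicates 1 to 3. Replicate 1 of si-GLMP lay just under the lowest NC library, and the other 2 lay far under it. The log2 fold change was -0.63 ± 0.19 (edgeR adjusted p = 0.0148). Without si-GLMP replicate 2 it was -0.40 (edgeR adjusted p = 0.134), and leaving out si-GLMP replicate 3 gave -0.53 (edgeR adjusted p = 0.103). An annotated gene on the other strand overlaps 16.3% of its exon bases.

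KRT6B, the near copy of KRT6A, rose while KRT6A fell. Its level was 9.77, 8.53 and 10.5 CPM in si-GLMP replicates 1 to 3, against 4.67, 6.65 and 6.04 CPM in NC replicates 1 to 3. The lowest si-GLMP library lay above the highest NC library. The means were 9.59 ± 0.977 CPM in si-GLMP and 5.79 ± 1.02 CPM in NC, a log2 fold change of 0.73 ± 0.14 with edgeR (adjusted p = 9.95e-05). Counted within each library, the ratio of KRT6B to KRT6A was 0.0279, 0.0333 and 0.0345 in si-GLMP, against 0.0112, 0.0136 and 0.0141 in NC. The summed copies, which consist mostly of KRT6A counts, fell as given above. KRT6C had 14 counts over the si-GLMP libraries and 8 over the NC libraries, and was not tested.

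KRT16, the type I partner of KRT6, had 25.5, 18.5 and 23.6 CPM in si-GLMP replicates 1 to 3, against 19.0, 17.7 and 16.9 CPM in NC replicates 1 to 3. Replicate 2 of si-GLMP lay inside the NC range and the other 2 lay above it. It rose by 0.34 ± 0.11 on the log2 scale with edgeR (adjusted p = 0.0149). The call was lost when NC replicate 3 was left out (edgeR adjusted p = 0.0736), and likewise for si-GLMP replicate 1 (0.14) or its replicate 3 (0.085). The ratio of KRT16 to KRT6A counts averaged 0.0742 ± 0.00308 in si-GLMP and 0.0405 ± 0.00484 in NC, and the groups did not overlap. Counts at the 6 rows of KRT16 pseudogenes came to 29, 26 and 30 in si-GLMP and 41, 46 and 35 in NC, which was 5.57 to 6.63% of the KRT16 counts in si-GLMP and 9.21 to 12.7% in NC; their part in the rise of KRT16 was not tested. The coding sequence of KRT16 was 87.79% identical to that of KRT14 and 76.66% to that of KRT17. Summed with these 2 genes, again a choice made with the values known, the log2 fold change was -0.05 ± 0.09 (edgeR adjusted p = 0.741). In NC this sum held 1119 KRT16 counts, beside 5871 for KRT14 and 7621 for KRT17.

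KRT17, a type I keratin of hair follicles and activated epidermis, had 156, 121 and 124 CPM in si-GLMP replicates 1 to 3, against 118, 124 and 121 CPM in NC replicates 1 to 3. Replicate 1 of si-GLMP was the highest library and the other 2 lay among the NC libraries, for a log2 fold change of 0.14 ± 0.07 with edgeR (adjusted p = 0.187). KRT15, a type I basal keratin, had 54.2, 44.1 and 48.4 CPM in si-GLMP replicates 1 to 3, against 47.5, 45.8 and 43.2 CPM in NC replicates 1 to 3, and a log2 fold change of 0.11 ± 0.08 with edgeR (adjusted p = 0.391). KRT10, the type I keratin of differentiating epidermis, had 10.1, 7.17 and 7.17 CPM in si-GLMP replicates 1 to 3, against 8.59, 5.72 and 8.52 CPM in NC replicates 1 to 3, and a log2 fold change of 0.09 ± 0.15 with edgeR (adjusted p = 0.722). All 3 overlapped between the groups. The sign for KRT10 turned without NC replicate 2 (-0.07) and without si-GLMP replicate 1 (-0.09).

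The other called stratified keratins were scarce. KRT9, the type I keratin of palm and sole skin, had 5.47, 4.43 and 5.96 CPM in si-GLMP replicates 1 to 3, against 3.06, 3.47 and 4.57 CPM in NC replicates 1 to 3. Its si-GLMP replicate 2 lay under NC replicate 3, so the groups overlapped, and it rose by 0.51 ± 0.18 (edgeR adjusted p = 0.0299). The call was lost without NC replicate 1 (edgeR adjusted p = 0.167), NC replicate 2 (0.0932), the first si-GLMP replicate (0.0864) or the third (0.161). KRT78, a type II keratin of stratified epithelia, had 3.52, 3.16 and 3.34 CPM in si-GLMP replicates 1 to 3, against 2.11, 2.59 and 2.09 CPM in NC replicates 1 to 3, without overlap. It rose by 0.56 ± 0.21 (edgeR adjusted p = 0.0415), a call lost in 5 of the 6 fits that left out a library, with edgeR adjusted p from 0.0536 without si-GLMP replicate 2 to 0.14 without NC replicate 3; the others were without NC replicate 1 (0.126), the first si-GLMP replicate (0.113) and the third (0.0899). KRT3, the type II keratin of the cornea, had 1.47, 2.07 and 1.74 CPM in si-GLMP replicates 1 to 3, against 1.10, 0.685 and 1.51 CPM in NC replicates 1 to 3, which overlapped. Its log2 fold change of 0.67 ± 0.30 was not called (edgeR adjusted p = 0.101), and without NC replicate 3 it was 0.98 and called (edgeR adjusted p = 0.0385).

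Summed over the class, the stratified keratins reached 808, 591 and 667 CPM in si-GLMP, against 826, 928 and 851 CPM in NC. The groups did not overlap, although si-GLMP replicate 1 lay close to NC replicate 1. The means were 689 ± 110.1 CPM in si-GLMP and 869 ± 53.1 CPM in NC, a log2 ratio of -0.33, while the median log2 fold change of the 12 expressed members was 0.12. The sum and the median thus differ in sign; the sum is weighted by the abundant members and the median counts each member once. Without KRT6A the sum was 385 ± 64.0 CPM in si-GLMP and 425 ± 14.5 CPM in NC, a log2 ratio of -0.14. The groups then overlapped, with 457, 335 and 363 CPM in si-GLMP, against 411, 440 and 424 CPM in NC.

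**Figure D3:**
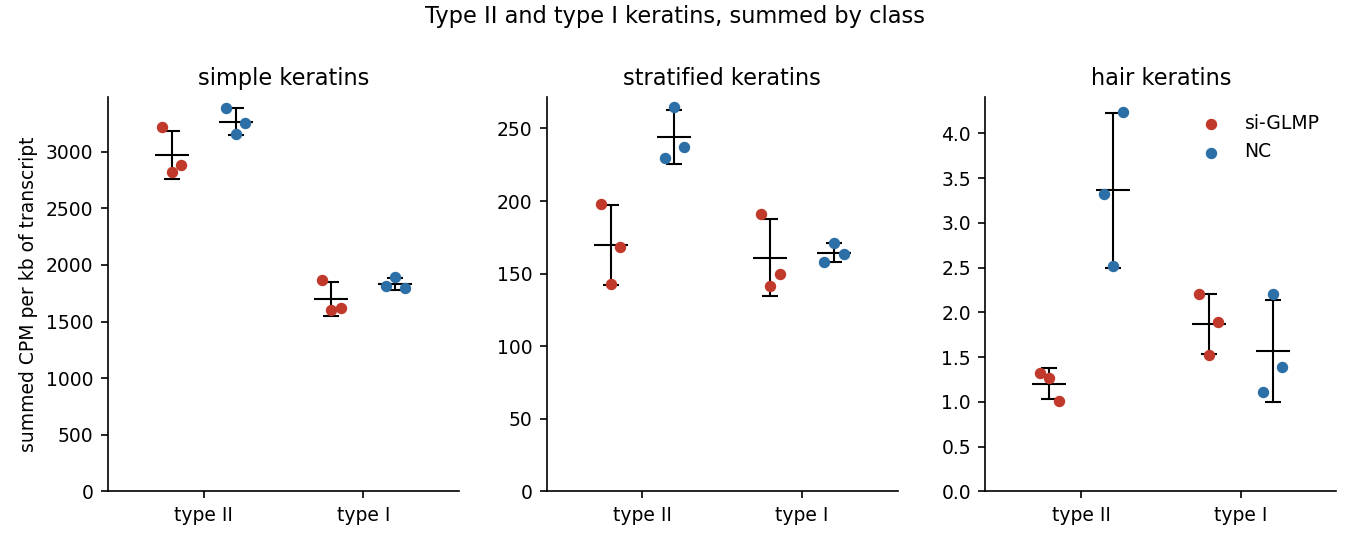
Summed CPM per kb of type II and type I keratins in the simple, stratified and hair classes, with si-GLMP left of NC; each panel has its own y axis from 0. Points are libraries, horizontal lines group means and bars 1 SD (n = 3 each); the type II stratified and type II hair keratins are lower in all 3 si-GLMP libraries than in any NC library, while the type I sums overlap.

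Within the stratified class the types were also summed apart. Per kb, the type II stratified keratins summed to 198, 143 and 168 CPM per kb in si-GLMP, against 229, 265 and 237 CPM per kb in NC. The type I stratified keratins summed to 191, 142 and 149.6 CPM per kb in si-GLMP, against 158, 171 and 164 CPM per kb in NC. The type II groups did not overlap and the type I groups did. The ratio of type II to type I in this class was 1.04, 1.01 and 1.12 in si-GLMP and 1.45, 1.55 and 1.45 in NC, with means of 1.06 ± 0.0605 in si-GLMP and 1.48 ± 0.0564 in NC. These sums and ratios over members are given as a description, with no test. KRT6A made up 77.5 ± 0.741% of the type II stratified level in si-GLMP and 78.7 ± 0.952% in NC. Without KRT6A the ratio was 0.238 ± 0.0103 in si-GLMP and 0.316 ± 0.00340 in NC, again with the groups apart. KRT5 made up most of the type II level left, 31.1 of 38.3 CPM per kb in si-GLMP and 47.2 of 51.9 CPM per kb in NC. This ratio therefore mostly restates the fall of KRT5. The other expressed type II members left, KRT6B, KRT78 and KRT3, had higher means in si-GLMP. Among the simple keratins the ratio of type II to type I was 1.75 ± 0.0342 in si-GLMP and 1.78 ± 0.104 in NC, and over all keratins 1.73 ± 0.0396 in si-GLMP and 1.79 ± 0.0916 in NC. The stratified keratins held 6.48 ± 0.527% of the keratin level per kb in si-GLMP and 7.31 ± 0.495% in NC. The annotated main transcript of KRT15, 5237 bases, lowers its level per kb.

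Of the hair keratins, KRT81 was the one called. KRT81, a type II keratin of the hair cortex, had 34, 38 and 24 counts in si-GLMP and 95, 82 and 152 counts in NC. The highest si-GLMP library lay under the lowest NC library, and NC replicate 3 stood above the other NC libraries. In CPM the level was 1.54 ± 0.332 CPM in si-GLMP and 5.18 ± 1.41 CPM in NC, a log2 fold change of -1.75 ± 0.22 with edgeR (adjusted p = 7.24e-09). The gene lies at chr12:52285913-52291534. The fold change of KRT81 lay between -1.90 and -1.505 and was called under all 13 other settings of scaling, filter, library set and test.

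KRT86, a close copy of KRT81 on the opposite strand, had 18, 13 and 14 counts in si-GLMP and 27, 18 and 33 counts in NC. The groups did not overlap in CPM, but only just, with 0.880 CPM in si-GLMP replicate 1 and 0.881 CPM in NC replicate 2. Its log2 fold change of -0.77 ± 0.35 was not called (edgeR adjusted p = 0.104). The pseudogene KRT87P, the only expressed symbol ending in P, had 78, 45 and 88 counts in si-GLMP and 71, 98 and 99 counts in NC, and a log2 fold change of -0.33 ± 0.20 with edgeR (adjusted p = 0.256). Summed in the same way, KRT81, KRT83, KRT86 and KRT87P had 131, 98 and 129 counts in si-GLMP, against 199, 198 and 285 counts in NC. This gave a log2 fold change of -0.91 ± 0.14 with edgeR (adjusted p = 1.61e-06), again for a sum chosen with the values known. Within the sum, KRT81 had 329 counts over NC and 96 over si-GLMP. KRT87P went from 268 to 211, KRT86 from 78 to 45 and KRT83 from 7 to 6. The fall of the sum thus mostly restates that of KRT81. The ratio of KRT81 to KRT86 counts was 2.18 ± 0.653 in si-GLMP and 4.23 ± 0.614 in NC, without overlap.

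Neither expressed type I hair keratin was called. KRT32, a keratin of the hair cuticle, had 1.56, 1.13 and 1.502 CPM in si-GLMP replicates 1 to 3, against 0.753, 0.930 and 0.843 CPM in NC replicates 1 to 3, without overlap, and a log2 fold change of 0.73 ± 0.32 that was not called (edgeR adjusted p = 0.0972). KRT34, a keratin of the hair cortex, had 1.71, 1.27 and 1.40 CPM in si-GLMP replicates 1 to 3, against 0.603, 2.20 and 1.46 CPM in NC replicates 1 to 3. Its log2 fold change was 0.03 ± 0.32 (edgeR adjusted p = 0.957), and it turned negative without NC replicate 1 (-0.32) and without si-GLMP replicate 1 (-0.09). As a class the hair keratins summed to 6.40, 5.14 and 5.28 CPM in si-GLMP, against 8.39, 8.71 and 10.7 CPM in NC, without overlap, a log2 ratio of -0.73. Without KRT81 the sum was 4.07 ± 0.698 CPM in si-GLMP and 4.10 ± 0.549 CPM in NC. Per kb, the type II hair keratins summed to 1.20 ± 0.173 CPM per kb in si-GLMP and 3.36 ± 0.861 CPM per kb in NC, and the type I hair keratins to 1.87 ± 0.339 CPM per kb in si-GLMP and 1.57 ± 0.573 CPM per kb in NC. The transcription factor HOXC13, a regulator of hair keratin genes, had 6.07 ± 1.4998 CPM in si-GLMP and 6.25 ± 1.24 CPM in NC (log2 fold change -0.05 ± 0.17, edgeR adjusted p = 0.877).

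Of the other epithelial keratins, KRT23, an inducible type I keratin of glandular epithelia, had 17, 11 and 12 counts in si-GLMP and 1, 9 and 3 counts in NC. In NC, replicates 1 and 3 lay at or under the floor of 3 counts, 0.133 to 0.151 CPM, and replicate 2 just under the si-GLMP range. The fitted log2 fold change was 1.61 ± 0.55 (edgeR adjusted p = 0.0259), but a gene that passes the filter through 1 group only has to differ, so the value is given as a description. Tested without a filter it was 1.61 (edgeR adjusted p = 0.0449). Fits that left out a library kept the filter, so their values are a description too. Leaving out NC replicate 2, the NC library with the most KRT23 counts, gave 2.70 (edgeR adjusted p = 0.00468). The call was lost at 1.18 without NC replicate 1 (edgeR adjusted p = 0.167), at 1.36 without NC replicate 3 (0.116), at 1.38 without the first si-GLMP replicate (0.133) and at 1.68 without the third (0.0654). KRT80, a type II keratin found in many epithelia at cell borders, had 304, 286 and 285 CPM in si-GLMP replicates 1 to 3, against 273, 295 and 268 CPM in NC replicates 1 to 3. It overlapped between groups and had a log2 fold change of 0.07 ± 0.06 with edgeR (adjusted p = 0.505).

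**Figure D4:**
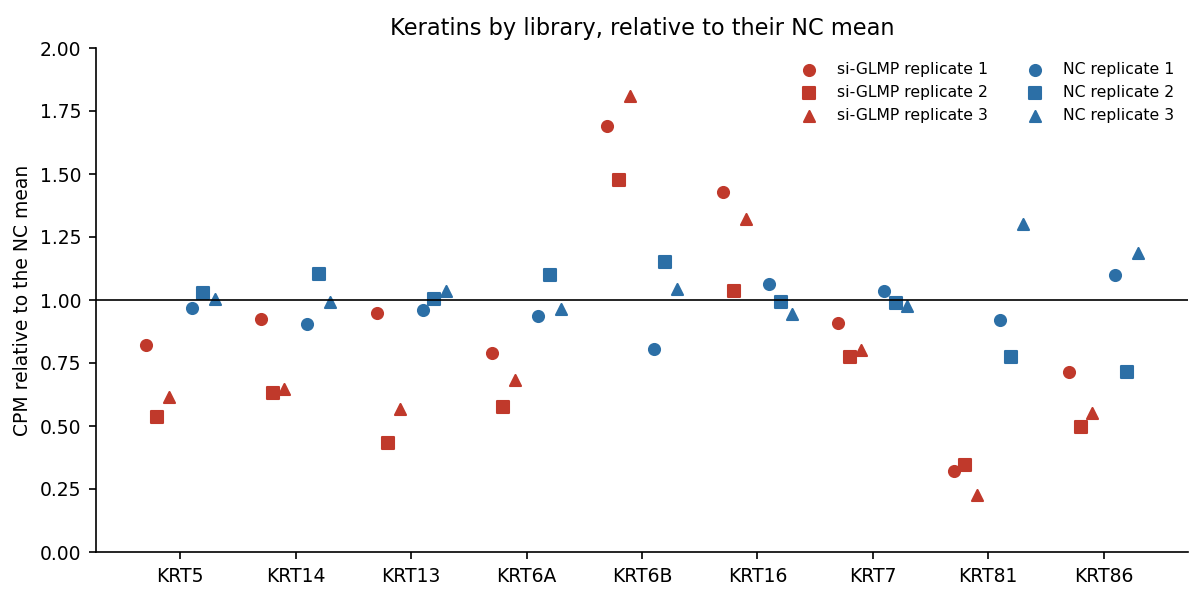
Level of 9 keratins in each library as CPM divided by the NC mean of the gene (y axis, linear), with si-GLMP left of NC and 1 marker shape for each replicate number. The horizontal line is the NC mean; si-GLMP replicate 1 lies above the other si-GLMP libraries for KRT5, KRT14, KRT13, KRT6A and KRT7, KRT6B lies above the line in all 3 si-GLMP libraries, and KRT81 lies lowest.

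The remaining 33 keratins were silent or nearly so. None reached more than 12 counts in a library, and together they had 124 counts in si-GLMP and 138 counts in NC. All 9 root sheath keratins, the keratins of the sheath around the growing hair, were among them, with 29 counts in si-GLMP and 42 in NC. KRT20, the simple keratin of the gut, had 4 counts in si-GLMP and 0 in NC, and KRT1 and KRT2, the type II keratins of the upper epidermis, had 4 and 5 counts in si-GLMP, against 6 and 3 counts in NC. The stratified keratins KRT79 and KRT4 had 19 and 15 counts in si-GLMP, against 22 and 20 counts in NC, and the root sheath keratin KRT74 had 12 counts in si-GLMP and 21 in NC. In 7 keratins no library had a count. At this depth, a level under about 0.133 to 0.151 CPM, or 3 counts, may be missed in a library. Rows of numbered KRT8 pseudogenes held 586 to 671 counts in si-GLMP and 573 to 620 counts in NC, 0.812 to 0.942% of the KRT8 counts over the 6 libraries. One of them, KRT8P12, rose by 0.43 ± 0.14 (edgeR adjusted p = 0.0183). Of 112 keratin-associated protein genes, which encode the matrix of the hair shaft, 1 was tested and was not called.

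In the genome, the 26 type II genes lay with KRT18 between 52168996 and 52952901 on chromosome 12, and 27 type I genes lay between 40697991 and 41624842 on chromosome 17 (GRCh38, GENCODE release 29). Both clusters held higher and lower genes. On chromosome 12, KRT6B rose and KRT6A and KRT5 fell between 52446651 and 52520687, and on chromosome 17 KRT13 fell while KRT9 and KRT16 rose.

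Genes listed as partners of keratin filaments also moved in both directions. Of 8 tested desmosome genes, the junctions that anchor keratin, 1 rose and 3 fell, with a median of 0.00 on the log2 scale; of all tested genes 12.0% rose and 11.3% fell, 23.3% in all. The desmosomal cadherin DSC2 rose to 46.8 ± 2.78 CPM in si-GLMP, against 28.996 ± 2.64 CPM in NC (0.69 ± 0.09, edgeR adjusted p = 5.21e-09). Desmoplakin, DSP, which binds the filaments, fell to 772 ± 33.1 CPM in si-GLMP, against 964 ± 81.4 CPM in NC (-0.32 ± 0.06, edgeR adjusted p = 0.00013). The plakophilins PKP4 and PKP2 fell by 0.50 ± 0.08 and 0.24 ± 0.07 (edgeR adjusted p = 1.06e-06 and 0.00546). PKP2 lost its call without NC replicate 2 (edgeR adjusted p = 0.0563). Of 11 plakin and hemidesmosome genes 2 rose and 3 fell, beside the same 23.3% of all genes called. Hemidesmosomes tie keratin to the basement membrane. The laminin-332 chains LAMA3 and LAMB3 moved apart, by -0.58 ± 0.06 and 0.26 ± 0.06 (edgeR adjusted p = 1.96e-10 and 0.00134), MACF1 fell by 0.36 ± 0.06 and the tetraspanin CD151 rose by 0.30 ± 0.08 (edgeR adjusted p = 1.04e-05 and 0.00246).

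Among 18 tested regulators of keratin filaments 5 rose and 3 fell, where 23.3% of all tested genes were called. SFN, the 14-3-3 protein sigma that binds phosphorylated keratin, rose to 1228 ± 57.2 CPM in si-GLMP, against 859 ± 24.8 CPM in NC (0.52 ± 0.06, edgeR adjusted p = 3.13e-09). The kinase MAPKAPK2 fell by 0.33 ± 0.07 (edgeR adjusted p = 0.000368), and FAM83H, which recruits casein kinase to keratin filaments, rose by 0.26 ± 0.06 (edgeR adjusted p = 0.002). Of 9 tested genes for other intermediate filaments 2 rose and 3 fell, beside 23.3% of all genes called. NES fell by 0.56 ± 0.09, INA by 0.37 ± 0.07 and NEFH by 0.42 ± 0.11, while BFSP1 rose by 0.80 ± 0.16 (edgeR adjusted p = 1e-06, 9.1e-05, 0.00233 and 8.83e-05). VIM, the mesenchymal filament gene, had 18 counts over si-GLMP and 33 over NC and was not tested.

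Of 27 tested transcription factors of keratin genes 7 rose and 6 fell, against a background of 12.0% higher and 11.3% lower, 23.3% in all. ELF3, GRHL1 and GRHL3, epithelial differentiation factors, rose by 0.79 ± 0.09, 0.91 ± 0.11 and 0.67 ± 0.11 (edgeR adjusted p = 2.27e-10, 4.09e-09 and 7.86e-06). GLI2, a Hedgehog pathway factor, fell by 0.80 ± 0.08 (edgeR adjusted p = 2.99e-11). TP63, the basal cell factor that acts on KRT5 and KRT14, fell to 159.7 ± 4.69 CPM in si-GLMP, against 199 ± 24.8 CPM in NC (-0.32 ± 0.07, edgeR adjusted p = 0.000467). Whether any of these factors bears on the keratins was not tested.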

How the data were processed

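The 6 RNA-seq libraries, 3 si-GLMP and 3 NC, were grouped by their titles. The authors deposited raw read counts per gene, whole numbers with no normalization. HISAT2 and GRCh38 are named per the submitters' processing notes; no source used here names the counting tool, the annotation release or the strand setting. Members and gene lists were chosen with earlier results of these data known.

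Counts were fitted with edgeR 4.0.16 in R 4.3.3 over the 15900 genes kept by filterByExpr (minimum count 10), with TMM factors from 0.9639 to 1.018, robust quasi-likelihood F tests, the group as the only term and Benjamini-Hochberg adjustment at 0.05. Per library, 99.84% or more of the counts lay in these genes. SE was obtained by dividing the log2 fold change by the root of F. The biological coefficient of variation was 6.91%. Class sums added the CPM of the members, and levels per kb divided CPM by the main transcript's length in GENCODE release 29, which held all 67 members. Coding sequences were aligned with MAFFT 7.526. All expressed members are named, with GLMP and up to 4 tested genes of each partner list by adjusted p, of which 1 gene is not reported here; TP63, HOXC13, VIM, KRT8P12 and the cell type markers named besides were chosen after their values were seen. Alternatives tried were upper-quartile and RLE scaling, no filter, 1 CPM in 3 libraries and each library left out. A replicate block, DESeq2 1.42.0 and limma-voom (limma 3.58.1) were tried too. Summing close copies, and KRT16 with KRT14 and KRT17, was added after the data were seen. The script was tested on simulated counts. Floors of 3 counts cover counting error only. Replicate libraries differed by more than sampling noise, so none was merged.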

Additional observations from a re-analysis of the deposited data

How the results depend on the processing

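KRT81, KRT6A, KRT6B and KRT7 kept their direction and call under all 13 other settings, with log2 fold changes from -1.90 to -1.505 for KRT81, -0.67 to -0.44 for KRT6A, 0.60 to 0.84 for KRT6B and -0.35 to -0.23 for KRT7. The count of 5 higher and 5 lower keratins was the same with RLE or upper-quartile scaling and limma-voom. The 5 higher include KRT23, which passed the filter on low counts through si-GLMP only. Without a filter it was 4 higher and 6 lower, with 1 CPM in 3 libraries 4 and 5, and with DESeq2 2 and 5, where KRT9 and KRT78 had adjusted p of 0.0743 and 0.0932 and KRT23 had none. Leaving out 1 library gave 1 to 4 higher and 4 to 8 lower; the highest, 8, was without si-GLMP replicate 1. In that fit 1 keratin was higher, as without si-GLMP replicate 3; without NC replicate 1 there were 2 and without NC replicate 3 there were 3. The replicate block gave 5 higher and 5 lower. Same-numbered libraries correlated by 0.0388, 0.0263 and 0.00128 in their deviations from the group means, and differently numbered ones by -0.038 to 0.00963. Each si-GLMP library correlated most with the NC library of its number. All these values were small, and the numbers were not taken as pairs.

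Over the tested keratins and KRT87P, 264 values under these settings kept their side of the threshold, 22 lost a call, 6 gained one and 4 changed sign. The changes of sign were KRT10, at -0.072 without NC replicate 2 and -0.088 without si-GLMP replicate 1, and KRT34, at -0.32 without NC replicate 1 and -0.093 without si-GLMP replicate 1; leaving out any 1 library gave -0.088 to 0.19 for KRT10 and -0.32 to 0.48 for KRT34. The sum of KRT6A, KRT6B and KRT6C had a log2 fold change of -0.52, and that of KRT14, KRT16 and KRT17 had -0.050. In coding sequence KRT16 was 87.79% identical to KRT14 and 76.66% to KRT17, so the second sum does not join near copies. Each sum is weighted by its abundant members and does not give the change of KRT6B or KRT16 itself. The cause of the changes of call and sign was not tested. The summed log2 ratios ran from -0.19 to -0.09 for simple, -0.47 to -0.24 for stratified and -0.83 to -0.61 for hair keratins. Low counts limit precision for KRT23, which had 1 to 17 counts a library. KRT14 was also called without a filter (edgeR adjusted p = 3.59e-07), and KRT78 was not (0.0814).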
